A study of Mus musculus with 6 samples.

Results

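The blood-testis barrier junction genes are 9 genes chosen by symbol in the gene tables of the libraries, out of 32285 genes measured, and all 9 were present: Cldn11, Cldn3, Ocln, F11r, Cxadr, Tjp1, Cdh2, Espn and Gja1. They were followed in single testis cells of 6 male C57BL/6J mice, and the questions were in which cell classes each gene was found and whether its level differed between control and nicotine-exposed mice. The control group was 3 mice on normal feeding. The nicotine group was 3 mice given nicotine at 200 µg/mL in the drinking water, starting at 3 weeks of age and lasting 8 weeks, and both groups were sampled at 11 weeks. All 6 mice were wild type as far as the labels say. Each library pooled both testes of 1 mouse, so the mouse is the replicate throughout.

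Sertoli cells are the somatic cells that line the seminiferous tubule and hold the germ cells. Near the base of the tubule, neighbouring Sertoli cells are sealed to each other by tight junctions, which lie together with actin-bundled adhesions called ectoplasmic specialisations, gap junctions and desmosomes. Together these contacts form the blood-testis barrier, which opens and closes again as early spermatocytes pass through it and which separates later germ cells from the blood. Claudins, occludin and the JAM and CAR proteins are the membrane proteins of these contacts, ZO-1 ties them to actin inside the cell, N-cadherin and espin belong to the adhesions with actin bundles, and connexin 43 forms gap junction channels.

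The data are droplet counts of unique molecular identifiers (UMIs, 1 count per captured RNA molecule), and 61945 cells were kept, 9848 to 11008 per library. Clusters were named from fixed marker genes into 12 classes, and 16.6% of kept cells stayed unnamed. The 9 genes and 106 other junction genes were kept out of the clustering, so no member placed a cell in a class directly. Sertoli-like cells numbered 4651, from 593 to 1040 per mouse, with a median of 954 UMIs, so the sum per mouse was 584545 to 1266297 UMIs. All 14 Sertoli markers had at least 1 UMI in them, with a summed level of 5289 to 8065 CPM per mouse. CPM is the gene's UMI count scaled to the same total in every class and mouse. All 14 also had at least 1 UMI in early spermatocyte-like, late spermatocyte-like and elongating spermatid-like cells, so detection alone does not set Sertoli-like cells apart. In each cluster of the Sertoli-like class, 6 or 7 of the 14 passed the naming rule, which needs 5 for a somatic name. Germ cell RNA was also present in this class: the elongating spermatid markers summed to 19682 CPM, 10.5% of their level in elongating spermatid-like cells, and the late spermatocyte markers to 85.8% of theirs. Its part in the member levels was not tested. The class called low-UMI early spermatocyte-like (5196 cells) rests on 3 markers. In 4356 of its cells the leading genes (Gm11867, Gm10754, Atrnl1) include no marker, and the endothelial score (0.36) was above that for early spermatocytes (0.35), with 0 endothelial markers passing. The classes called early/late spermatocyte-like (1488 cells, score 0.203) and late spermatocyte-like (3055 cells, score 0.286) also rest on 3 markers, so these 3 names are weak. No spermatogonium, myoid or endothelial class was found. Germ cell clusters with a median below 2470 UMIs, the median of all kept cells, are called low-UMI; somatic classes carry no such mark. Between 172 and 210 cell barcodes per library also occurred in another library, and no library was left out.

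The upstream sequences of Cldn11 and Cldn3, whose RNA was highest in Sertoli-like cells, and of Gja1, which was high in Leydig-like cells and also found in germ cells, are shown to set genes of unlike cell range side by side. Each is the stretch of 250 bases that ends just before the RefSeq transcript start, 5′ to 3′ on the plus strand of GRCm38.p6, with no annotated exon in it. Cldn11 lies at chr3:31149670-31149919, Cldn3 at chr5:134985964-134986213 and Gja1 at chr10:56377050-56377299. Capitals mark a match to 1 of 6 motifs searched on both strands.
Cldn11: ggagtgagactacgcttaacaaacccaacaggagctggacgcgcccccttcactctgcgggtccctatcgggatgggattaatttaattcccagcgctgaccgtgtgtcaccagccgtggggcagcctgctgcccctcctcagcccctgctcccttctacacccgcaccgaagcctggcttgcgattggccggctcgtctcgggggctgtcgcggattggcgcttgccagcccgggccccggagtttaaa
Cldn3: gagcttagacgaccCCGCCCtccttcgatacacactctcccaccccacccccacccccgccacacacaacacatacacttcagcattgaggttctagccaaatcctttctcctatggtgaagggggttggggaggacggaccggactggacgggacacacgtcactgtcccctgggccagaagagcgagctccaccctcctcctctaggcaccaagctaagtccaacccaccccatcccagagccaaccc
Gja1: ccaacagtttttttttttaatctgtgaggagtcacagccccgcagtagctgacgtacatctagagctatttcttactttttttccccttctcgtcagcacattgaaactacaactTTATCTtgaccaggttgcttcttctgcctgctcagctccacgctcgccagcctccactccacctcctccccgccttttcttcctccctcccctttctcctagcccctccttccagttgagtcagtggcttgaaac
The Cldn3 stretch holds 1 match to the SP1 motif GGGCGG, read on the opposite strand, and 32.7% of 32851 RefSeq promoter stretches of the same length hold at least 1. The Gja1 stretch holds 1 match to the GATA motif AGATAA, also on the opposite strand, as 9.99% of stretches do. The Cldn11 stretch holds no match to these or to ACAAT (SOX, in 27.7% of stretches), AGAACA (1 arm of the paired androgen receptor site, 16.1%), AAGGTCA (NR5A1, 4.08%) or TGACGTCA (CRE, 1.55%). Its GC content is 63.6%, that of Cldn3 60.8% and that of Gja1 50%, beside a median of 52.4% over all stretches. RefSeq upstream sequences were matched for 7 of the 9 genes.

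Cldn11 encodes claudin-11, a main strand-forming protein of the Sertoli cell tight junction, and lies on chromosome 3 at 31149920 to 31164324 (plus strand, GRCm38, GENCODE vM21). In Sertoli-like cells the control mice had 38.7, 51.1 and 55.5 CPM and the nicotine mice 41.1, 81.2 and 22.7 CPM, from 247 UMIs in all. The nicotine mice held both the highest and the lowest value. Its mean over the 6 mice was 48.4 ± 19.7 CPM (SD, n = 6), and no mouse overlapped with the stromal-like cells, the next class at 4.25 CPM from 4 UMIs. In early/late spermatocyte-like cells 0 of 9392623 UMIs were Cldn11, which allows up to 0.319 CPM, a floor of 3 counts that covers counting error only.

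Cldn3, on chromosome 5 at 134986214 to 134987472 (plus strand), encodes claudin-3, known in the mouse testis from newly formed junctions around spermatocytes in transit. Sertoli-like cells had 38.7, 47.2 and 29.6 CPM in control and 39.3, 31.9 and 41.6 CPM in nicotine mice, 196 UMIs in all, and the groups overlapped. Late spermatocyte-like cells came next with 6.90 ± 1.24 CPM (SD, n = 6, 411 UMIs), below every Sertoli-like value. The other germ classes lay between 1.58 and 5.18 CPM and each overlapped its neighbour in the order of levels. In stromal-like cells no Cldn3 UMI was seen, which allows up to 2.9 CPM.

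Ocln (occludin, a tight junction membrane protein, chromosome 13 at 100496507 to 100552718, minus strand) was rare. Its 15 UMIs in Sertoli-like cells gave 1.58, 7.66 and 1.85 CPM in control and 3.42, 1.45 and 2.52 CPM in nicotine mice. Every mouse had at least 1 UMI there, and no other class exceeded a mean of 0.314 CPM. No Ocln UMI was seen in Leydig-like, stromal-like or macrophage-like cells, which allows up to 1.21, 2.9 and 5.22 CPM. The macrophage-like limit lies above the Sertoli-like mean of 3.08 CPM.

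F11r encodes JAM-A, an immunoglobulin-like adhesion protein of tight junctions (chromosome 1 at 171437535 to 171464603, plus strand). Sertoli-like cells had 22.1, 20.4 and 18.5 CPM in control and 22.2, 27.5 and 12.6 CPM in nicotine mice. The gene was higher in stromal-like cells, at 89.6 ± 23.6 CPM, and in Leydig-like cells, at 44.5 ± 11.0 CPM (SD, n = 6 each), in every mouse. Macrophage-like cells had 31.8 CPM from 20 UMIs, a spread that overlapped both neighbours. Among germ classes the highest mean was 2.76 CPM, in early spermatocyte-like cells.

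Cxadr encodes CAR, the coxsackievirus and adenovirus receptor, an adhesion protein of junctions and of germ cells (chromosome 16 at 78301489 to 78359774, plus strand). Only 4 UMIs fell in Sertoli-like cells, from 3 mice, for a mean of 0.835 CPM. Its highest class was the low-UMI early spermatocyte-like one at 6.998 ± 2.26 CPM (SD, n = 6, 67 UMIs), followed by early spermatocyte-like cells at 3.12 CPM, and these overlapped.

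Tjp1, the gene of the scaffold ZO-1, spans 231.6 kb of chromosome 7 at 65296165 to 65527781 (minus strand). Sertoli-like cells had 19.7, 21.7 and 27.8 CPM in control and 25.7, 31.9 and 36.6 CPM in nicotine mice. Their mean, below that of 8 other classes, was 27.2 ± 6.30 CPM (SD, n = 6). Low-UMI early spermatocyte-like cells had 128.7 ± 13.5 CPM (SD, n = 6), with no overlap with any other class. The 8 classes next in order, from 54.1 CPM in early spermatocyte-like to 27.2 CPM in Sertoli-like cells, each overlapped the next. Along the spermatids the level was 35.4 CPM in round and 7.75 CPM in elongating spermatid-like cells.

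Cdh2, the gene of N-cadherin, the classical cadherin of Sertoli-Sertoli and Sertoli-germ cell adhesions, spans 220.4 kb of chromosome 18 at 16588877 to 16809246 (minus strand). Early/late spermatocyte-like cells had 245.5 ± 35.0 CPM (SD, n = 6), above every other class in every mouse. Low-UMI early spermatocyte-like cells followed at 75.2 CPM, early spermatocyte-like cells at 52.0 CPM and low-UMI late spermatocyte-like cells at 38.1 CPM. Sertoli-like cells came next at 36.6 ± 7.80 CPM, which overlapped the class above them and not late spermatocyte-like cells at 20.3 CPM below them. The leading genes of the early/late spermatocyte-like cluster were Magi2, itself a long gene, and several predicted genes. No source at hand states whether the authors counted intronic reads. The part of intronic reads in the Cdh2 and Tjp1 levels was not tested.

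Espn encodes espin, the actin-bundling protein of the ectoplasmic specialisation (chromosome 4 at 152120331 to 152152371, minus strand). Sertoli-like cells had 97.1, 130.2 and 89.8 CPM in control and 123.2, 150.8 and 78.2 CPM in nicotine mice, 560 UMIs in all. The nicotine values enclosed the control values. Leydig-like cells had 67.2 ± 18.5 CPM (SD, n = 6) from 170 UMIs and lay below the Sertoli-like cells of the same mouse in 5 of 6 mice. Among germ classes, late spermatocyte-like cells were highest at 16.7 CPM and elongating spermatid-like cells lowest at 1.57 CPM.

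Gja1 encodes connexin 43, the gap junction protein that couples Sertoli cells with each other and with germ cells (chromosome 10 at 56377330 to 56402513, plus strand). Leydig-like cells, the steroid-producing cells between the tubules, had 140.2 ± 33.1 CPM (SD, n = 6, 345 UMIs), above all other classes in every mouse. Sertoli-like cells had 16.6, 29.4 and 22.2 CPM in control and 11.98, 24.6 and 22.7 CPM in nicotine mice. They overlapped round spermatid-like cells at 25.4 CPM, late spermatocyte-like cells at 23.2 CPM and low-UMI early spermatocyte-like cells at 19.0 CPM. Early spermatocyte-like cells were lowest at 1.55 CPM.

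**Figure D1:**
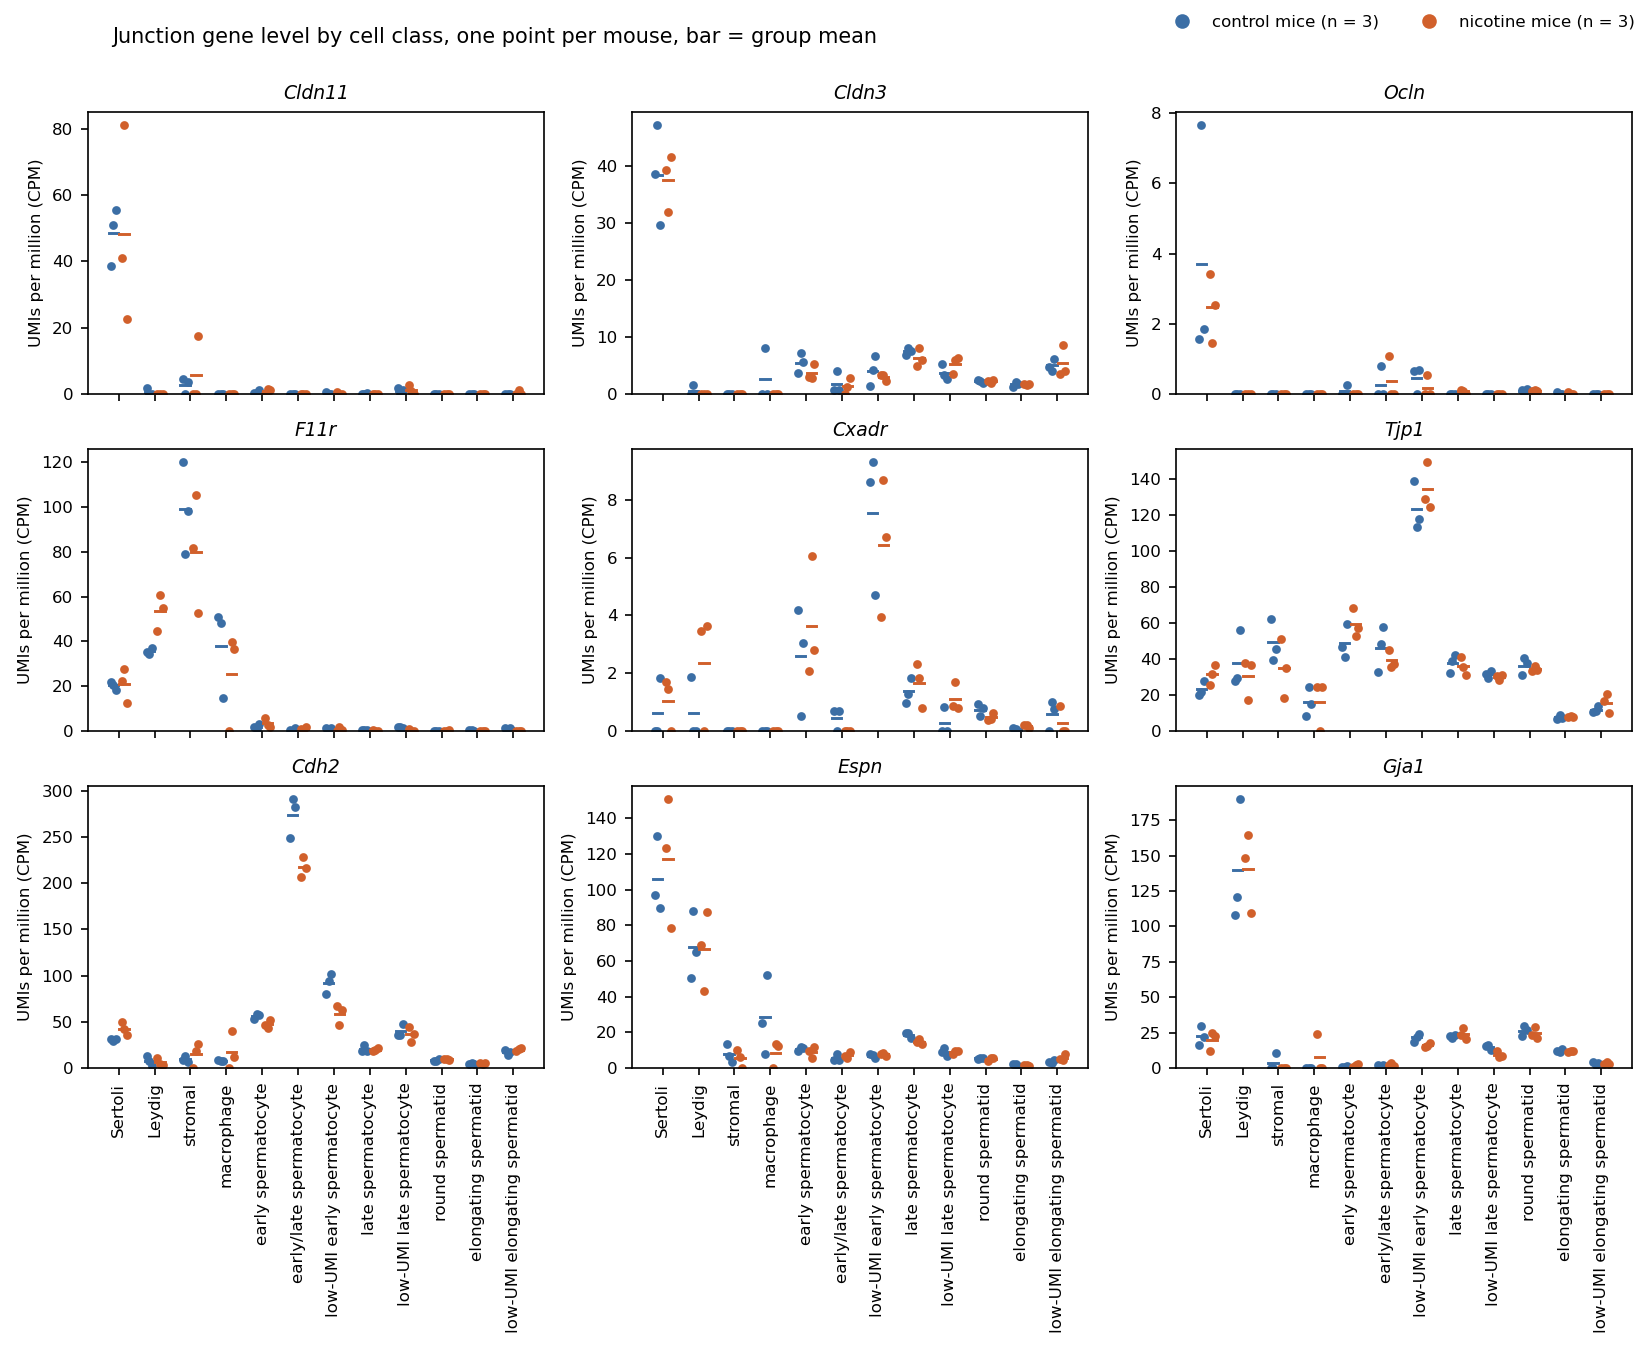
Level of each junction gene (CPM, linear axis from 0) in the 12 cell classes, with 1 point per mouse and a bar at each group mean (3 control and 3 nicotine mice). Cldn11, Cldn3, Ocln and Espn have their highest mean in Sertoli-like cells, Gja1 in Leydig-like cells (140.2), F11r in stromal-like cells (89.6), and Cdh2, Tjp1 and Cxadr in spermatocyte-like classes.

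By mean level, 4 of the 9 genes were thus highest in Sertoli-like cells. The highest class was the same for all 9 when only cells with at least 1000 UMIs were used. For Ocln, macrophage-like cells held too few UMIs to be placed below Sertoli-like cells. Free RNA can give UMIs in cells that do not express a gene, so the levels in germ cells were set beside those of the 14 Sertoli markers, whose sum in the germ classes was 0.193% to 1.62% of its Sertoli-like level. Cldn11 in all named germ cells was at 0.273% of its Sertoli-like level and the marker sum at 0.396%. By class, Cldn11 was at most at 2.4%, in low-UMI late spermatocyte-like cells (8 UMIs), beside 1.08% for the marker sum. F11r stood at 1.75%, Espn at 6.05% and Cldn3 at 8.18%, each above the marker sum. That sum was meant to gauge free RNA of Sertoli cells and not that of other cells. The same markers also summed to 1715.5 CPM in Leydig-like, 703.4 CPM in stromal-like and 601.3 CPM in macrophage-like cells. In Sertoli-like cells they summed to 6844.9 CPM. How much of the sum in germ cells came from each of these classes was not tested. F11r and Espn were also found in Leydig-like cells (44.5 and 67.2 CPM) and F11r in stromal-like cells (89.6 CPM). Free RNA from those cells was not tested. Cdh2 stood at 57.1%, Gja1 at 95.6% and Tjp1 at 120.2% of the Sertoli-like level. Median depth differed strongly between the classes compared, with 954 UMIs in Sertoli-like and 17157 UMIs in round spermatid-like cells.

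**Figure D2:**
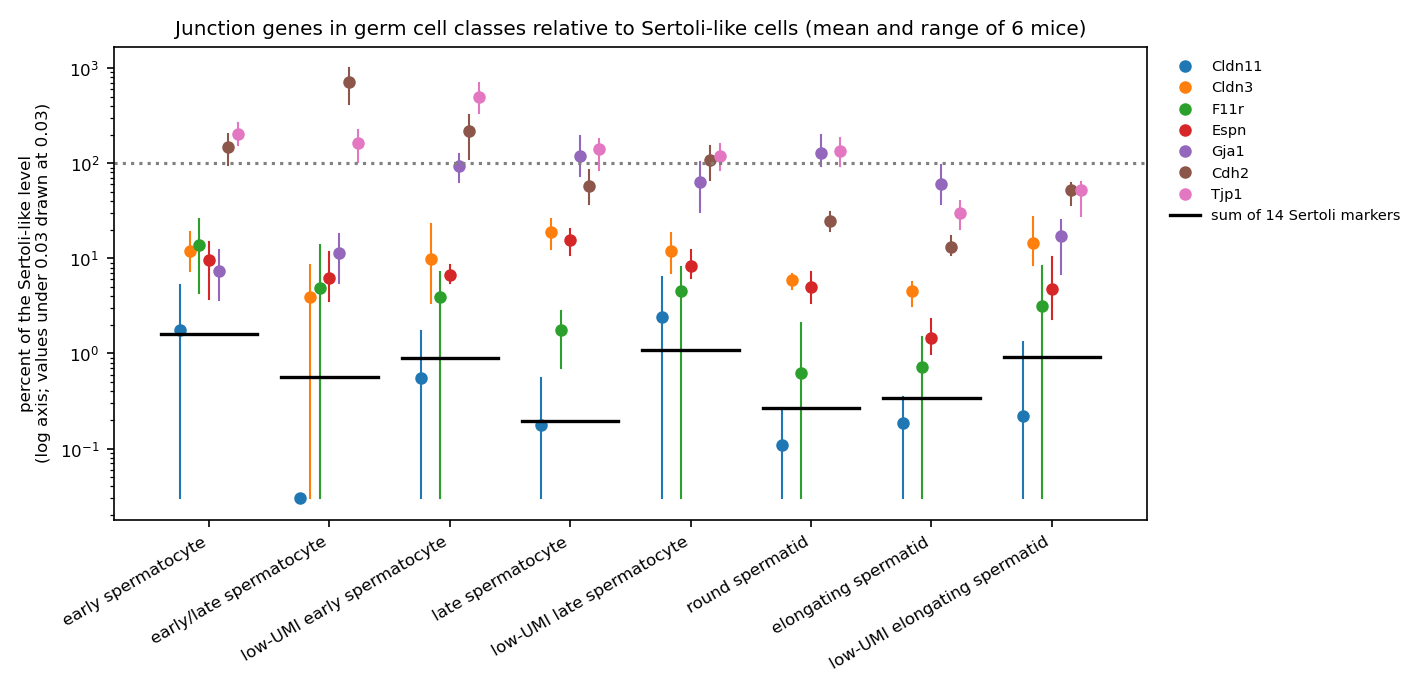
Level of 7 junction genes in the 8 germ cell classes as a percent of the level in Sertoli-like cells of the same mouse (log axis, points are means and lines the range of 6 mice, values under 0.03 drawn at 0.03), with the sum of 14 Sertoli markers as black bars and 100 percent dotted. Cldn11 lies on both sides of the black bars and is drawn at 0.03 in early/late spermatocyte-like cells, where it had 0 UMIs. Cldn3 and Espn lie above the bars, and Cdh2, Gja1 and Tjp1 reach or pass 100 percent in some spermatocyte or spermatid classes.

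Set against all named germ cells in 1 fit with the mouse as a block, 6 of the 9 genes were higher in Sertoli-like cells. The log2 differences were 8.33 for Cldn11 (SE 0.235), 5.63 for F11r (SE 0.269) and 5.08 for Ocln (SE 0.644). They were 3.81 for Espn (SE 0.110), 3.37 for Cldn3 (SE 0.174) and 0.58 for Cdh2 (SE 0.135). The germ sum is weighted by UMIs, with 170903462 from round and 99614179 from elongating spermatid-like cells of 382708929 in all. Early/late, low-UMI early, early and low-UMI late spermatocyte-like cells had higher mean Cdh2 than Sertoli-like cells (245.5, 75.2, 52.0 and 38.1 against 36.6 CPM). Tjp1 was lower by this test (log2 difference -0.47, SE 0.138, adjusted p 0.00141). That call was lost with cells of at least 1000 UMIs (-0.32, adjusted p 0.124) and with total UMIs in place of TMM scaling (-0.22, adjusted p 0.183). Gja1 (-0.08, adjusted p 0.671) and Cxadr (-0.46, SE 0.740) were not called. Most genes differed between these classes: 61.1% of 20835 genes were called, 26.5% as higher and 34.6% as lower, and the median over the 9 genes was 3.37 beside -0.21 over all genes. With total UMIs the calls were 6859 higher and 5789 lower in place of 5516 and 7205, and the median of all genes moved to 0.04. The genes were kept out of the clustering but follow genes that built it, so these sizes describe the classes.

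Against the pooled Leydig-like, stromal-like and macrophage-like cells (1163 cells), Cldn3 was higher in Sertoli-like cells by 5.87 on the log2 scale (SE 0.445), Cldn11 by 5.12 (SE 0.362), Cdh2 by 1.90 (SE 0.252) and Espn by 1.23 (SE 0.139). Gja1 fell by 1.98 (SE 0.168) and F11r by 1.42 (SE 0.186) in Sertoli-like relative to these cells. Tjp1 missed the threshold (-0.38, adjusted p 0.0612) and passed it without the mouse block (adjusted p 0.0489). Ocln and Cxadr had too few UMIs to be tested. The 6 called of 7 tested stand beside 84.1% of 12028 genes called, 39.8% as higher and 44.3% as lower.

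Other genes of the same contacts were spread over the classes in both directions. Of 12 tested tight junction membrane proteins outside the 9 genes, Cldn7 (log2 difference 3.79, SE 0.506) was higher in Sertoli-like than in germ cells and 3 were lower, Cldn12 (-1.78, SE 0.427), Marveld3 and Igsf5. Jam2 and Jam3, relatives of F11r, had 30.2 and 29.97 CPM in Sertoli-like cells and were not called against germ cells. Of 9 tight junction adaptors, Cgn, the gene of cingulin (3.24, SE 0.230), Amot and Amotl2 were higher, and 5 were lower, among them Cgnl1 (-1.50, SE 0.131), Magi1, Amotl1 and Mpdz. Of 17 cadherin, catenin and nectin genes, 6 were higher, with Ctnna1, the gene of α-catenin, at 3.47 (SE 0.154), and 5 were lower, with Nectin3, at 209.8 CPM in Sertoli-like cells, at -0.71 (SE 0.0767). Of 15 genes of the actin bundles, 7 were higher, among them Zyx (6.45, SE 0.245) and Eps8 (3.95, SE 0.225), an actin-capping and bundling protein, and 6 were lower, among them Pfn3 (-1.95, SE 0.0885), a testis profilin. Of 15 polarity genes, 5 were higher and 6 lower, and of 16 kinase, endocytosis and signalling genes, 5 were higher, with Cdc42 at 3.08 (SE 0.0914), and 3 lower. Of 5 gap junction genes, 2 were higher, with Gja6 at 5.70 (SE 0.540), and Panx2 was lower, and none of 5 desmosome genes was called. Among the 3 highest of their list in Sertoli-like cells were also Magi1 (20.8 CPM, beside 32.4 CPM in named germ cells), Nectin2 (40.0 beside 34.7), Vasp (94.7 beside 267.6) and Actr3 (37.2 beside 12.9). The same held for the polarity genes Lin7c (91.0 beside 94.6 CPM), Pard6a (67.0 beside 64.2) and Scrib (61.5 beside 30.6). It also held for Rhoa (106.2 beside 34.2 CPM) and Dnm2 (64.6 beside 71.2 CPM), which act in actin control and endocytosis. The gap junction gene Gjc1 (10.2 beside 6.21 CPM, 51 UMIs in Sertoli-like cells) and the desmosome gene Pkp4 (6.8 beside 7.70 CPM, 33 UMIs) led low lists. The part of germ cell RNA in these Sertoli-like levels was not tested.

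The 4 Sertoli-like clusters did not carry the genes at equal levels. The largest, of 2118 cells, had 27.7 ± 11.4 CPM of Cldn11 and 60.5 ± 16.3 CPM of Espn, where the cluster of 1869 cells had 59.8 ± 29.6 and 156.1 ± 41.2 CPM (SD, n = 6 mice). The Sertoli marker sum followed the same order, 3617 and 8430 CPM. Cdh2 went the other way, 42.6 ± 17.1 against 38.2 ± 6.41 CPM, well within its spread. Cldn3 was highest in the cluster of 1869 cells (57.5 CPM) and Cldn11 in a cluster of 488 cells (77.0 CPM) led by Rhox5 and Cst9. Each of these values rests on at most 129 UMIs, except the 323 of Espn, and no test was made, since clusters were drawn from the same cells.

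The genes most like each member over the 12 class means (Pearson's r of log2(CPM + 1), among 16207 genes, given as a description) were Sema6c for Cldn11 (r = 0.990), 4930550L24Rik for Cldn3 (0.858), Zfp395 for F11r (0.992), Atpaf1 for Tjp1 (0.976), Cc2d2b for Cdh2 (0.988), Atox1 for Espn (0.934) and 2010300C02Rik for Gja1 (0.916). Capn6 and Qpct came after Sema6c for Cldn11, and Rhox5, a homeobox gene of Sertoli cells (0.857), and Derl3 came after the first for Cldn3. Pls3, one of the listed actin-bundling genes (0.991), and Prmt2 followed for F11r. Usp37 and Trp53bp1 followed for Tjp1, the predicted genes Gm41349 and Gm40646 for Cdh2, Unc119 and Prkra for Espn, and Sv2c and Oca2 for Gja1. The classes share libraries and differ in depth, and Ocln and Cxadr were too low in all classes to be compared this way.

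In Sertoli-like cells no member was called between nicotine and control mice. Of the 9 genes, 7 passed the filter on low counts and 0 were called, beside 0.156% of 8339 genes (13, all lower, with 640 at an unadjusted p under 0.05 and 20 called by DESeq2). The median log2 difference of the 7 genes was -0.02 and that of all genes 0.02. The barrier claudins were near 0: Cldn11 had a log2 difference of -0.03 (SE 0.360, adjusted p 0.997) and Cldn3 -0.03 (SE 0.230, adjusted p 0.995). The Cldn11 value turned on single mice: it was -0.65 without nicotine replicate 2 and 0.36 without nicotine replicate 3, neither of them called. The Cldn11 values of the nicotine mice ran from 22.7 to 81.2 CPM. With that spread and this depth, the test could miss a change of Cldn11 well above its SE. F11r had -0.02 (SE 0.308), Gja1 -0.14 (SE 0.314) and Espn 0.14 (SE 0.200).

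The largest log2 differences among the 7 were those of Tjp1 (0.44, SE 0.261, adjusted p 0.751) and Cdh2 (0.41, SE 0.224, adjusted p 0.721). With cells of at least 1000 UMIs, Cdh2 was at 0.105 and Tjp1 at 0.803, neither of them called. Without nicotine replicate 1, Cdh2 was at 0.268. Cdh2 in Sertoli-like cells was 31.6, 29.4 and 31.5 CPM in control and 49.6, 42.0 and 35.3 CPM in nicotine mice. Every nicotine mouse lay above every control mouse, as did 7.41% of all genes tested in this class. The elongating spermatid markers in the same cells summed to 19201 to 27805 CPM in control and 13758 to 16587 CPM in nicotine mice, without overlap, while the early spermatocyte markers overlapped at 464.8 to 567.8 and 549.2 to 657.2 CPM. The 8 stromal markers were low in this class and also did not overlap, at 15.8 to 37.0 CPM in control and 6.31 to 11.98 CPM in nicotine mice. The part of this other RNA in the Cdh2 values was not tested. Sertoli-like cells were 8.58% of cells in control and 6.35% in nicotine mice on average.

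**Figure D3:**
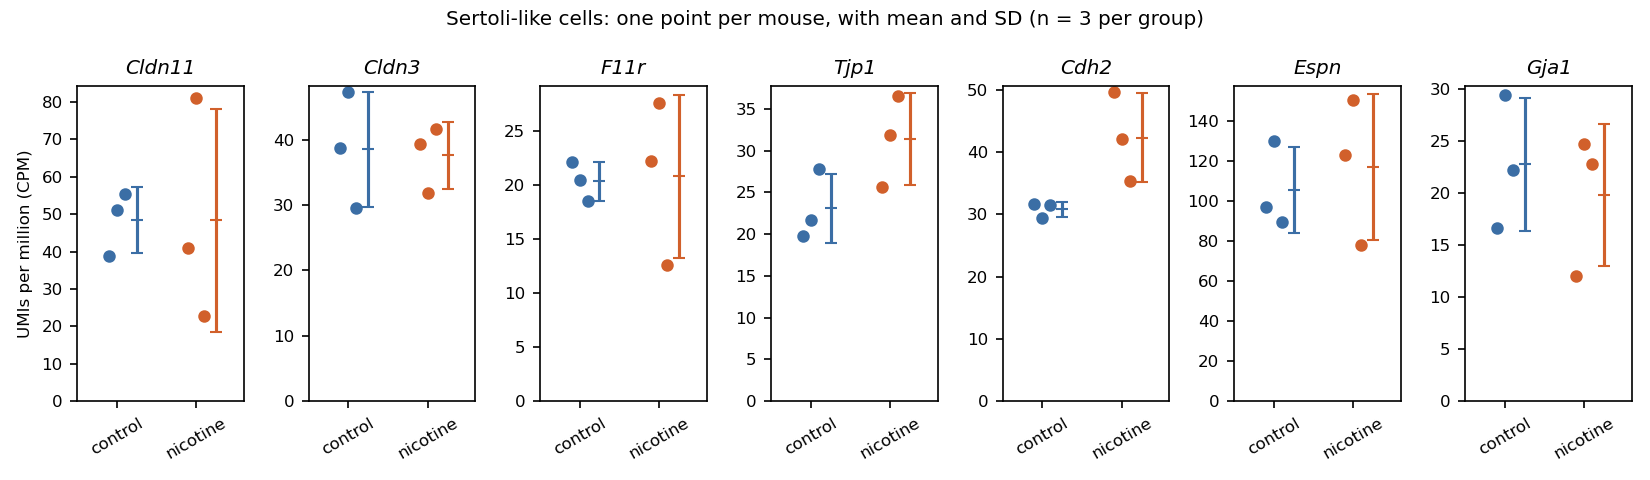
Level of 7 junction genes (CPM, linear axes from 0) in Sertoli-like cells, 1 point per mouse, with the mean and SD of 3 control and 3 nicotine mice. The groups overlap for all genes drawn except Cdh2, where nicotine mice lie between 35.3 and 49.6 and control mice between 29.4 and 31.6.

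In the other 10 classes tested, 40 pairs of member and class passed the filter and 0 were called, beside 0.289% of all 107513 gene and class pairs. Macrophage-like cells were not tested, since 1 nicotine mouse had 15 such cells. Nicotine mice were all below control mice in 6 of the 40 pairs (15%, beside 6.53% of all pairs) and all above in 1 (2.5%, beside 8.76%). Of the 6 pairs, 3 were Cdh2 and 2 were Gja1, and all come from the same 6 mice, so they are not independent.

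Cdh2 was lower in nicotine mice in early, early/late and low-UMI early spermatocyte-like cells, without overlap in any of them and without a call. In low-UMI early spermatocyte-like cells it was 79.6, 93.8 and 102.1 CPM in control and 66.8, 46.2 and 62.8 CPM in nicotine mice (log2 difference -0.64, SE 0.149, unadjusted p 0.000315, adjusted p 0.108 by edgeR). It was called without control replicate 1 (-0.73, adjusted p 0.00418) and with no filter on low counts (-0.61, adjusted p 0.00508). In the other alternatives with an adjusted p for this class it ran from 0.0732 to 0.488, and DESeq2 gave none. Non-overlap downward held for 10.2% of the genes tested there. In early/late spermatocyte-like cells it was 248.5, 291.0 and 282.6 CPM in control and 206.5, 228.2 and 216.5 CPM in nicotine mice (-0.33, SE 0.0980, adjusted p 0.283), where 6.37% of genes were lower without overlap. Early spermatocyte-like cells had 52.9, 58.9 and 57.2 CPM against 47.0, 43.7 and 52.3 CPM (-0.31, SE 0.133, adjusted p 0.177), beside 9.43% of genes. Marker sums also stood apart between the groups in the same cells. In early spermatocyte-like cells the early spermatocyte markers were at 1517 to 2050 CPM in control and 2270 to 2647 CPM in nicotine mice, and the late spermatocyte markers at 8847 to 10314 and 8006 to 8725 CPM. In low-UMI early spermatocyte-like cells the Sertoli markers were at 66.5 to 79.0 and 41.3 to 58.3 CPM and the Leydig markers at 36.3 to 66.6 and 22.8 to 26.4 CPM. In early/late spermatocyte-like cells the Leydig markers were at 33.4 to 50.0 and 24.1 to 28.0 CPM. The groups did not overlap in any of these sums, and their part in the Cdh2 values was not tested. In late spermatocyte-like (-0.05) and round spermatid-like cells (0.18) the groups overlapped.

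**Figure D4:**
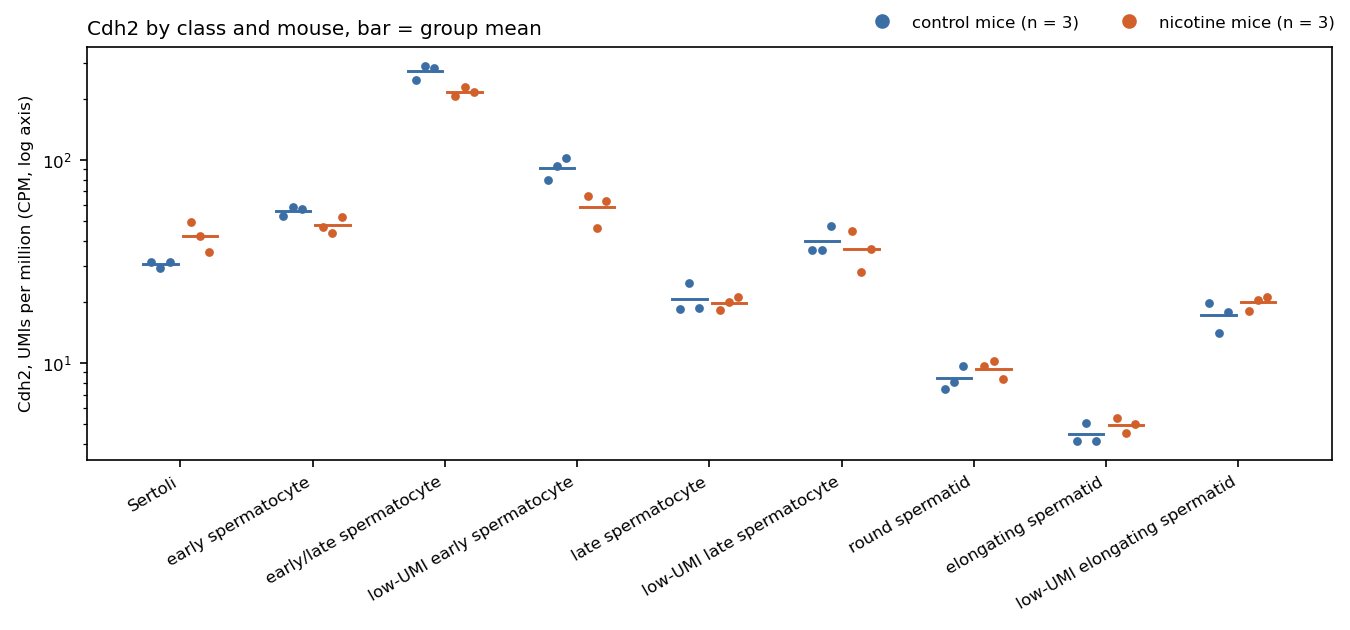
Cdh2 level (CPM, log axis) in Sertoli-like cells and the 8 germ cell classes, 1 point per mouse and a bar at each group mean (3 control, 3 nicotine). Nicotine mice lie above control mice in Sertoli-like cells (log2 difference 0.41) and below them in early (-0.31), early/late (-0.33) and low-UMI early (-0.64) spermatocyte-like cells, and none of these passed the adjusted threshold.

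Gja1 was lower in all nicotine mice in low-UMI late spermatocyte-like cells (15.9, 16.4 and 12.6 against 12.3, 7.65 and 8.75 CPM, log2 difference -0.65, adjusted p 0.425, beside 7.88% of genes) and in low-UMI early spermatocyte-like cells (-0.39, adjusted p 0.467). In the low-UMI late class the Leydig markers were at 52.0 to 80.4 CPM in control and 20.2 to 50.1 CPM in nicotine mice, and the round spermatid markers at 1713 to 1944 and 1559 to 1686 CPM. These sums did not overlap, nor did the Leydig markers of the low-UMI early class given above, and their part in the Gja1 values was not tested. In Leydig-like cells, where it was highest, its log2 difference was 0.00 (SE 0.229). F11r in Leydig-like cells was 35.5, 34.2 and 37.2 CPM in control and 44.8, 60.6 and 54.8 CPM in nicotine mice, the 1 pair in which all nicotine mice were higher (0.56, SE 0.304, adjusted p 0.997), beside 5.76% of genes. Espn in late spermatocyte-like cells was 19.8, 19.4 and 16.9 against 14.4, 16.2 and 13.5 CPM (-0.33, SE 0.123, adjusted p 0.214), beside 9.64% of genes. The round spermatid markers in the same cells were at 1683.5 to 1801.6 CPM in control and 2051.7 to 2123 CPM in nicotine mice, without overlap. Their part in the Espn values was not tested. None of these 4 pairs was called.

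Over all kept cells, 8 members were tested and 0 called, beside 0.459% of 21997 genes (101, with 1554 at an unadjusted p under 0.05 and 208 called by DESeq2). F11r (-0.40, SE 0.180, unadjusted p 0.0458, adjusted p 0.682), Espn (-0.27, SE 0.115, unadjusted p 0.0346, adjusted p 0.600) and Cldn11 (-0.31, SE 0.281) had the lowest values. F11r was lower in every nicotine mouse than in every control mouse, as were 7.43% of genes. In such whole-testis sums, fewer cells of a type and less RNA per cell cannot be told apart, and the mean share of Sertoli-like cells was 8.58% in control and 6.35% in nicotine mice. The classes where F11r was highest also had lower mean shares in nicotine mice, 0.714% against 1.07% for stromal-like, 0.426% against 0.708% for Leydig-like and 0.289% against 0.529% for macrophage-like cells. Over all kept cells the Sertoli markers did not overlap, at 132.92 to 164.25 CPM in control and 101.26 to 116.85 CPM in nicotine mice. Nor did the Leydig markers (123.1 to 179.4 against 68.4 to 80.3 CPM) and the macrophage markers (41.8 to 55.4 against 26.2 to 38.8 CPM). The myoid and spermatogonium markers were also lower without overlap, while the stromal markers overlapped. Within Leydig-like cells the F11r difference was 0.56, as given above. Within stromal-like cells it was -0.30 (SE 0.331) and within Sertoli-like cells -0.02 (SE 0.308), and none of these was called. The part of the shares in the whole-testis values was not tested.

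Whether the nicotine difference was itself different between Sertoli-like and germ cells was tested in 1 fit. For the 9 genes 0 were called, beside 1.11% of 20835 genes, with Cdh2 at 0.36 (SE 0.254, adjusted p 0.894) and Espn at 0.30 (SE 0.200, adjusted p 0.872). Against other somatic cells 0 of 7 were called, beside 0.0915% of 12028 genes, with Tjp1 at 0.83 (SE 0.404, unadjusted p 0.0403, adjusted p 0.793). Among the 106 other junction genes, 1 was called in any nicotine comparison. Vasp, an actin-elongating protein of cell contacts, was lower in nicotine mice in low-UMI late spermatocyte-like cells (140.2, 133.0 and 133.6 against 89.4, 95.2 and 109.7 CPM, log2 difference -0.48, SE 0.119, adjusted p 0.0206), where 1.27% of 9654 genes were called. In Sertoli-like cells Vasp was 108.2, 112.4 and 118.5 CPM in control and 83.8, 72.5 and 73.2 CPM in nicotine mice (-0.59, SE 0.156, adjusted p 0.154).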

How the data were processed

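Testis cells of 6 mice were profiled with 10x 3′ v3 chemistry, 10000 cells loaded per library. The authors deposited raw UMI counts, 1 matrix of whole numbers per mouse; Cell Ranger 7.2.0 and GRCm38 (mm10) are named in the submitters' processing notes. Matrices held 10823 to 12317 barcodes and 67853893 to 88329607 UMIs; the lowest held 500. No source at hand gives the rule that called barcodes.

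Cells with at least 500 UMIs, 250 genes and under 20% mitochondrial UMIs were kept, and the highest Scrublet scores were removed at 0.8% per 1000 cells. Leiden clustering (scanpy 1.11.5, Python 3.11.15) used 2000 variable genes, 30 components, 15 neighbours and resolution 1, and clusters with somatic markers were clustered again, 32 in all. Germ names needed 3 and somatic names 5 markers at a fold of 1.5 in 10% of cells, and low-UMI marks germ clusters with a median below that of all kept cells. This rule was refined after clusters were seen. Rebuilt classes can differ from the study's.

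UMIs were summed per mouse and class (at least 20 cells per mouse) and tested with edgeR 4.0.16 in R 4.3.3 (quasi-likelihood, TMM, filterByExpr, Benjamini-Hochberg over all genes tested, threshold 0.05). SE is the log2 difference over the root of F. Named are all 9 members, listed genes called in a nicotine comparison, the 3 of a list highest in Sertoli-like cells and the 3 genes most like a member; further listed genes were named after their values were seen. Some listed genes are not reported here. Alternatives were DESeq2 1.42.0, other scaling, no filter, left-out mice, a block, deeper cells, doublets left in and resolution 2. The test was run on simulated counts with the same spread for every gene. That run cannot tell what change of a member the test would miss. The members and lists were chosen with earlier results of these data known. Promoters are from RefSeq (GRCm38.p6).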

Additional observations from a re-analysis of the deposited data

Results flagged for a closer look

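The Cdh2 values differed in direction between classes, and none of the within-class differences was called: all nicotine mice were above all control mice in Sertoli-like cells (log2 difference 0.41) and below them in early (-0.31), early/late (-0.33) and low-UMI early (-0.64) spermatocyte-like cells. With cells of at least 1000 UMIs the Sertoli-like difference was 0.105. The difference between Sertoli-like cells and each of these classes was not tested, and against all named germ cells it was not called (0.36, adjusted p 0.894 by edgeR).

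Vasp had a lower nicotine difference in Sertoli-like cells than in the sum of all named germ cells. The log2 difference between them was -0.79 (SE 0.182, adjusted p 0.00320 by edgeR). In named germ cells Vasp was 286.1, 238.7 and 250.5 CPM in control and 263.8, 274.7 and 291.8 CPM in nicotine mice. The groups overlapped there, but that sum is weighted by UMIs and single germ classes differed. Nicotine mice were lower without overlap in low-UMI early (53.8 to 56.3 against 64.5 to 68.1 CPM) and early/late spermatocyte-like cells (8.39 to 15.6 against 19.0 to 26.6 CPM). The same held in low-UMI late spermatocyte-like cells, as given above. In late spermatocyte-like cells nicotine mice were higher without overlap (50.4 to 53.0 against 39.7 to 48.9 CPM). The Sertoli-like values of Vasp did not overlap between the groups, nor did the elongating spermatid markers in Sertoli-like cells (19201 to 27805 against 13758 to 16587 CPM). Vasp was highest in elongating spermatid-like cells (619.4 to 790.9 CPM). The part of that RNA in the Vasp difference was not tested.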

How the results depend on the processing

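No member was called in Sertoli-like cells or over all kept cells under any alternative run. Of 281 values of single members under alternatives, 247 kept direction and side of the threshold, 29 reversed, 3 passed the threshold and 2 lost it; the cause was not tested. In Sertoli-like cells the number of all genes called was 13, and 0 with cells of at least 1000 UMIs, 20 with DESeq2, 1 with doublets left in, 77 with no filter, 0 at resolution 2 and 1 to 17 when 1 mouse was left out (8 without control replicate 1, 1 without control replicate 3 or nicotine replicate 1, 4 without nicotine replicate 2). In the other classes 0 members and 311 genes were called, and 1 member (Cdh2) and 1792 genes with no filter, 478 genes with DESeq2, 161 with total UMIs, and 0 to 1 member and 46 (without nicotine replicate 2) to 1794 genes (without control replicate 3) with 1 mouse left out, each of the 6 moving the count by over 1.5 times. Over all kept cells 101 genes were called, 208 with DESeq2, 217 with no filter and 0 to 93 with 1 mouse left out (0 without nicotine replicate 1, 13 without nicotine replicate 2, 17 without control replicate 3, 57 without control replicate 2).

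Replicate numbers are shared by the labels' groups. The correlations given here are of each mouse's deviation from its group mean, not of its expression level. Such deviations cancel within a group, so a high value for a same-numbered pair pushes down the other pairs of those mice. In Sertoli-like cells same-numbered mice correlated at 0.0852, 0.16 and 0.14, above every differently numbered pair (-0.137 to 0.0094), a gap partly built in. Over all kept cells they correlated at -0.0793, 0.326 and 0.0173, and differently numbered pairs ran from -0.301 to 0.311. Whether same-numbered mice share more than a number was not tested. With the replicate block 105 genes were called in Sertoli-like cells, 1183 in the other classes and 87 in all kept cells, and 0 members.

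In Sertoli-like cells none of the reversed values was called. Cldn11 gave 0.123 with at least 1000 UMIs, 0.034 with doublets, 0.0775 at resolution 2 and -0.652 to 0.359 with 1 mouse left out (0.115 and 0.0284 among them). F11r gave 0.248, 0.156 and 0.138 under the same settings and -0.293 to 0.271 with 1 mouse left out (0.0445 among them). Gja1 gave 0.236 with at least 1000 UMIs and -0.356 to 0.0608 with 1 mouse left out (0.0323 among them). Cldn3 gave 0.0504 with doublets and -0.168 to 0.0936 with 1 mouse left out (0.0889 among them), and Espn -0.0886 to 0.383. Over all kept cells Tjp1 gave -1.41e-05 with no filter, -0.0207 with total UMIs and -0.0779 to 0.0459 with 1 mouse left out (-0.00878 and -0.0185 among them). Gja1 gave -0.192 to 0.0101 and Cdh2 -0.0654 to 0.0375 (0.0179 among them). Against germ cells Gja1 gave 0.199 with at least 1000 UMIs and 0.168 with total UMIs, and Cxadr 0.372 with at least 1000 UMIs. The total-UMI setting of the class comparisons, and deeper cells for all kept cells, were chosen after seeing the data. Depth limits Ocln (15 UMIs) and Cxadr (4 UMIs) most.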
